A study of Mus musculus with 18 samples.

Results

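Tuft cells are scarce chemosensory cells of the gastric and intestinal epithelium, and the genes described here are 9 genes known for them, *Dclk1*, *Trpm5*, *Pou2f3*, *Il25*, *Gnat3*, *Avil*, *Sh2d6*, *Alox5ap* and *Ptgs1*, out of 31201 gene names counted in the series. The rule for the 9 genes names them and uses no measured value, but they were chosen with earlier results of these data known. Each gene was followed through every cell cluster. *Pou2f3* encodes the transcription factor that tuft cells need to form. Tuft cells sense their surroundings with parts of the taste cascade, such as the G protein subunit gustducin (*Gnat3*) and the cation channel encoded by *Trpm5*. They answer with the cytokine IL-25 (*Il25*), which acts on innate lymphoid cells, and with lipid mediators that depend on the 5-lipoxygenase-activating protein (*Alox5ap*) and cyclooxygenase 1 (*Ptgs1*). *Dclk1* encodes a kinase that binds microtubules and is widely used as a tuft cell marker, *Avil* encodes the actin-binding protein advillin, and *Sh2d6* encodes a protein with an SH2 domain.

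The cells came from untreated male wild-type C57BL/6J mice, 10 weeks old, and were measured by Quartz-Seq2, which sorts 1 cell into each of the 384 wells of a plate and counts its transcripts by unique molecular identifiers (UMIs). In dataset 1 both the corpus and the antrum were taken, in 2 pools (tube1 and tube2) of 3 mice each, and cells were sorted as ToPro3(-) on 6 plates. Dataset 2 held corpus cells of 2 further pools of 3 mice (K and T), sorted as Hoechst33342(+) and ToPro3(-) on 12 plates. The mice of a pool were mixed before sorting, so a pool is the unit of replication, with n = 2 in each dataset, and no animal can be told apart. The paper states that different operators prepared the 2 pools of a dataset, so pool and operator cannot be told apart either. The plates held 3054370 to 5346035 UMIs in dataset 1 and 10540256 to 12850942 UMIs in dataset 2. The authors kept 491 cells of dataset 1 and 3993 cells of dataset 2, each with at least 2500 detected genes, and gave these cells the clusters used here. For a separate analysis of the less common cell types they used a lower minimum, 0.5 times as high, and the wells that it adds have no cluster in the files used here. All plates of a dataset used the same well barcodes, so cells of different plates share barcodes by design. The kept cells held 296 distinct barcodes in dataset 1 and 384 in dataset 2.

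On GRCm39, with GENCODE vM39 gene models, *Dclk1* lies on chromosome 3 from 55149618 to 55446493, *Trpm5* on chromosome 7 from 142622890 to 142648379, and *Pou2f3* on chromosome 9 from 43035228 to 43121666. *Il25* lies on chromosome 14 from 55170152 to 55173294, *Gnat3* on chromosome 5 from 18167547 to 18225473, and *Avil* on chromosome 10 from 126836578 to 126856863. *Sh2d6* lies on chromosome 6 from 72490624 to 72498690, *Alox5ap* on chromosome 5 from 149196003 to 149227762, and *Ptgs1* on chromosome 2 from 36120438 to 36142287. All 9 are protein-coding. *Dclk1* overlaps 7 other genes, among them *Gm19817* on its own strand, and *Trpm5* overlaps *R74862* on its own strand and *Tssc4* on the other. *Avil*, *Il25*, *Alox5ap* and *Ptgs1* overlap genes on the other strand only, and *Pou2f3*, *Gnat3* and *Sh2d6* overlap none. Where genes overlap, reads in the shared parts can be split between genes by the counting.

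The deposited clusters do not separate tuft cells, which lie in cluster 15 of dataset 2 and cluster 14 of dataset 1 beside other cells. A cell was therefore called tuft-like when it had at least 1 UMI of at least 4 of 10 calling genes, none of which is among the 9 members, and which include *Rgs13*, *Bmx*, *Gfi1b*, *Plcb2*, *Gng13*, *Sh2d7*, *Hmx2*, *Chat* and *Ltc4s*. In dataset 2, 23 of 3993 cells met this rule, 0.576% (Wilson 95% confidence interval 0.384% to 0.863%, which covers counting error only). Pool K had 11 and pool T had 12, and all 23 were in cluster 15, which held 32 cells. In dataset 1, 8 of 491 cells met it, 1.63% (0.828% to 3.18%), 4 in each pool, and all 8 were in cluster 14, which held 12 cells. The plates carried from 0 to 5 tuft-like cells, with none on 4 of the 12 plates of dataset 2 and none on 2 of the 6 plates of dataset 1.

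**Figure D1:**
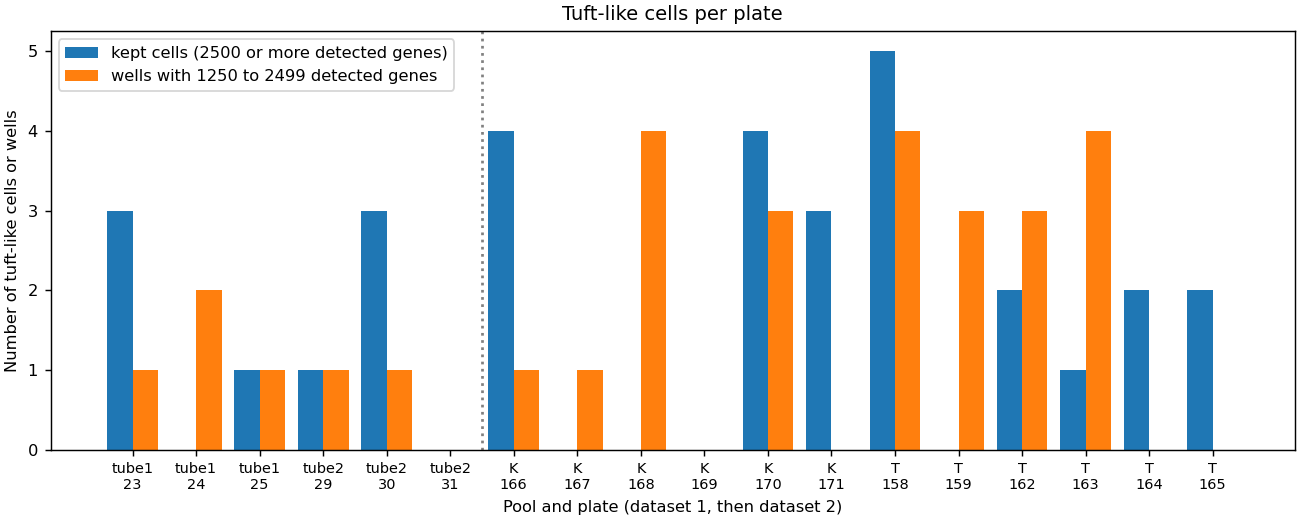
Number of tuft-like cells (y axis) on each plate (x axis, labelled by pool and plate number), for kept cells (blue) and for wells with fewer than 2500 detected genes that reach the authors' lower minimum for less common cell types, 0.5 times as high (orange). A plate of pool T had the highest number of kept tuft-like cells, 5, and in dataset 2 the wells added by the lower minimum held 23 more.

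The label of these cells was set beside the marker lists. The 10 calling genes, which the call itself used, were all detected in the tuft-like cells of both datasets, with a summed level of 6476 UMIs per 1000000 (CPM, from the UMIs summed over the class in a pool) in pool K, 6402 CPM in pool T, 9266 CPM in tube1 and 9456 CPM in tube2. *Chat*, which encodes the enzyme that makes acetylcholine, had a UMI in only 1 of 23 tuft-like cells of dataset 2 and in 3 of 8 of dataset 1. The epithelial keratin genes and *Epcam* and *Cdh1* were summed at 12759 CPM in K and 12560 CPM in T, led by *Krt18* at 6078 CPM. The 9 stromal markers were all at 0 in the tuft-like cells of dataset 2. In dataset 1, *Col3a1* was the only stromal marker with a UMI, at 10.3 CPM. Of the 4 macrophage markers, *Lyz2* had 4.81 CPM in pool K, 1 UMI, and the others were at 0. Of the 4 leukocyte markers, *Ptprc*, the common leukocyte phosphatase, was the most abundant, at 45.1 CPM in dataset 2 and 131 CPM in dataset 1. Of the 4 mast cell markers only *Kit* was detected, at 146 CPM in both datasets. The chief cell gene *Pgc*, which is very abundant in the corpus, stood at 9015 CPM in the tuft-like cells of dataset 2. Whether RNA from other wells or cells adds to these values was not tested.

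All 9 members were measured in the tuft-like cells of every pool. *Pou2f3* stood at 692 CPM in K and 663 CPM in T, and at 432 CPM in tube1 and 487 CPM in tube2. It had at least 1 UMI in each of the 31 tuft-like cells. The pools of a dataset were close together for this gene, with a mean of 677 ± 20.9 CPM (SD, n = 2 pools) in dataset 2 and 460 ± 38.5 CPM in dataset 1. In dataset 1 these levels rest on few molecules, 21 UMIs in tube1 and 19 in tube2. Of the 21, 15 came from 1 cell. That cell held 30335 of the 48564 tuft-like UMIs of tube1, so it weighs heavily on every tuft-like level of this pool.

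Among the taste-type genes, *Trpm5* stood at 1288 CPM in K and 1166 CPM in T, and at 2080 CPM in tube1 and 2922 CPM in tube2, with a UMI in all 31 cells. *Gnat3* stood at 317 CPM in K and 406 CPM in T, and at 432 CPM in tube1 and 103 CPM in tube2, with a UMI in 20 of 23 cells of dataset 2 and 6 of 8 of dataset 1. The pools of dataset 1 differed widely for *Gnat3*, whose tuft-like sums there rest on 25 UMIs. Of these, 17 came from the cell of tube1 described above, with 30335 UMIs.

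Of the genes for the cell's structure and signalling, *Dclk1* stood at 2389 CPM in K and 1308 CPM in T, and at 2471 CPM in tube1 and 3921 CPM in tube2. *Avil* stood at 1904 CPM in K and 1648 CPM in T, and at 1586 CPM in tube1 and 2588 CPM in tube2. *Sh2d6* stood at 2226 CPM in K and 1568 CPM in T, and at 4674 CPM in tube1 and 7611 CPM in tube2. For *Dclk1* and *Sh2d6* both pools of dataset 1 lay above both pools of dataset 2, whereas for *Avil* the pools of the datasets overlapped. The datasets differ in stomach region, sort and primer version, so the region cannot be told apart from these. Their tuft-like cells also differed in depth, with a median of 7204.5 UMIs in dataset 1 and 18803 in dataset 2. The median mitochondrial share was 9.49% and 4.09%.

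Of the mediator genes, *Alox5ap* stood at 1957 CPM in K and 1953 CPM in T, and at 2945 CPM in tube1 and 2640 CPM in tube2. *Ptgs1* stood at 293 CPM in K and 318 CPM in T, and at 721 CPM in tube1 and 794 CPM in tube2. *Il25* rested on few molecules, 32 UMIs over the 23 cells of dataset 2 and 14 UMIs over the 8 cells of dataset 1. It stood at 91.3 CPM in K and 57.4 CPM in T, and at 82.4 CPM in tube1 and 256 CPM in tube2. *Alox5ap* had the closest pools of the 9 members in dataset 2, with an SD of 2.79 CPM (n = 2).

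**Figure D2:**
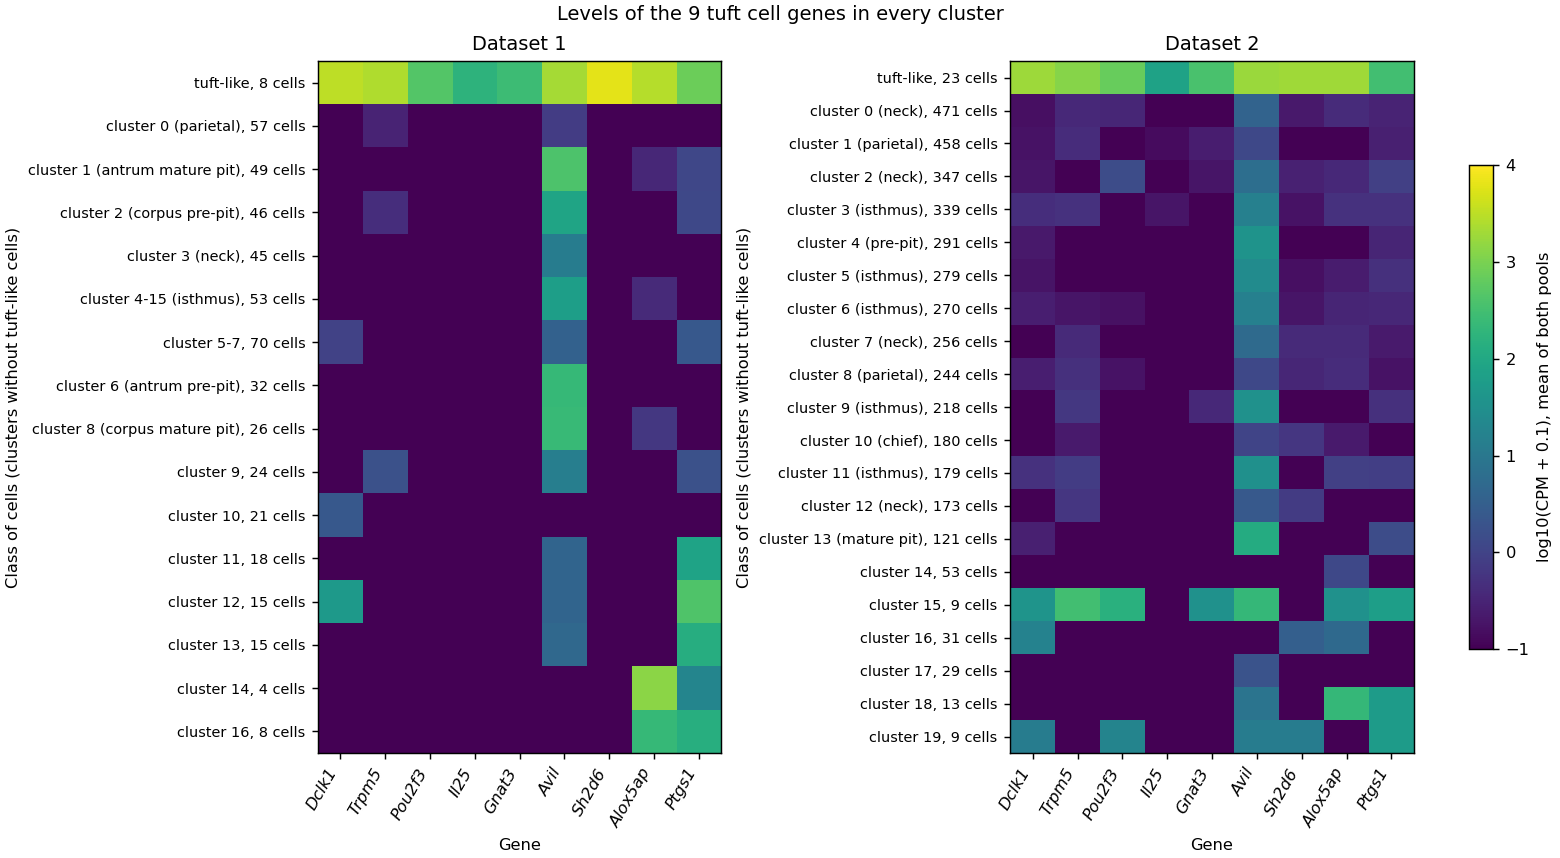
Level of the 9 genes (x axis) in the tuft-like cells and in every cluster without them (y axis), as log10(CPM + 0.1), mean of both pools, for dataset 1 (left) and dataset 2 (right). The tuft-like row is high for all 9 genes, *Avil* is also high in the pit clusters (121 CPM in mature pit cells of dataset 2), and *Ptgs1* and *Alox5ap* are also present in clusters with stromal, endothelial or leukocyte markers.

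How far the tuft-like cells stand apart from the major epithelial types was tested on UMIs summed per class and pool. The tuft-like sums were set against the mean of the chief, parietal, neck, isthmus, pre-pit and mature pit sums in dataset 2, and of the corpus and antrum mature pit, corpus pre-pit, neck, parietal, isthmus-like (cluster 4-15) and cluster 6 sums in dataset 1. Cluster 6, annotated by the study as pre-pit cells of the antrum, is given here by its number. Its leading genes by fold were *Zg16*, *Muc2*, *Tff3*, *Fcgbp* and *Clca1*, which are known from goblet cells, and no pit marker was among its first 10. The pit markers *Gkn2* and *Tff1* were high in it all the same, at a mean of 28433 and 39378 CPM, against 44184 and 48091 CPM in corpus pre-pit cells. In dataset 2 all 9 members were higher in tuft-like cells by edgeR's quasi-likelihood test, beside 12.8% of 12962 genes called higher. DESeq2 split the calls otherwise, with 2179 genes higher and 1570 lower, against 1658 and 1995 with edgeR. In dataset 1 the 8 members that passed the filter on low counts were higher, beside 6.76% of 10473 genes, and *Il25* was too low to be tested. The split there was 708 higher and 1119 lower with edgeR, and 1048 and 644 with DESeq2. Apart from *Avil*, the members passed the filter through their tuft-like counts, so they had to differ and their number called adds nothing. The classes were also made from these same counts, so the p-values describe how far apart the classes lie.

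In dataset 2 the ratio of tuft-like to epithelial level was lowest for *Avil* and next lowest for *Ptgs1*. Over all epithelial types of dataset 2, *Sh2d6* had 16 UMIs among 136884724, against 818 among 434351 in the tuft-like cells, a ratio of CPM of 16112 (95% counting interval 9861 to 28323). *Dclk1* had 17 epithelial UMIs and a ratio of 14701 (9123 to 25364). *Gnat3* had 6 and a ratio of 8299 (3729 to 22956). The ratio was 8919 for *Alox5ap*, 5081 for *Trpm5*, 5042 for *Il25* with 2 epithelial UMIs (1286 to 43426), and 4412 for *Pou2f3*, whose pools gave 3041 in K and 7841 in T. Of the 15 epithelial UMIs of *Pou2f3* in K, 14 came from 1 neck cell, and of the 6 in T, 4 came from 1 other neck cell with UMIs of 3 calling genes, so that 2 cells carry most of the epithelial level of this gene. The ratio was 953 (673 to 1372) for *Ptgs1* and 103 (94.6 to 112) for *Avil*. The pools gave 129 in K and 84.5 in T for *Avil*, both outside that interval, which covers counting error only. The fitted log2 fold change of *Avil* was 6.94 (SE 0.16, edgeR adjusted p = 2.34e-14), that of *Ptgs1* 9.96 (SE 0.31, adjusted p = 3.19e-12), and that of *Il25* 11.44 (SE 0.76, adjusted p = 3.16e-07). The other 6 members had fitted values between 13.05 for *Trpm5* and 14.02 for *Sh2d6*, which depend on how the near-absent counts of the other types are modelled.

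In dataset 1, *Dclk1*, *Pou2f3*, *Il25*, *Gnat3* and *Sh2d6* had no UMI among the 16294257 UMIs of the epithelial types. The limit that a count of 0 allows over the group is 3 UMIs. Set against it, they were 16930-fold, 2481-fold, 868-fold, 1550-fold and 32495-fold higher in tuft-like cells. These values leave out the counting error of the tuft-like UMIs, of which *Il25* had 14 and *Gnat3* 25, and so are not lower bounds. They are over both pools, which were unequal for 2 of the genes. *Il25* had 4 UMIs in tube1 and 10 in tube2, and *Gnat3* had 21 and 4. *Trpm5* had 2 epithelial UMIs and a ratio of 19999 (5470 to 166199). *Alox5ap* had 3 and a ratio of 15255 (5159 to 74482). *Ptgs1* had 6 and a ratio of 2046 (892 to 5777), with 1440 in tube1 and 3299 in tube2. *Avil* had 2287 epithelial UMIs and a ratio of 14.5 (12.4 to 16.9), but 8.75 in tube1 alone and 25.6 in tube2 alone, both outside that counting interval. Over both pools it had a fitted log2 fold change of 4.64 (SE 0.35, edgeR adjusted p = 3.70e-09). The call of *Gnat3* in dataset 1 (edgeR adjusted p = 1.77e-06) was lost with DESeq2's Wald test (adjusted p = 0.109).

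Among single cells, a UMI of these genes was more common in tuft-like cells than in parietal cells. In dataset 2 the share of cells with a UMI was 100% for *Trpm5*, *Pou2f3* and *Avil*, 95.7% for *Alox5ap*, 87.0% for *Gnat3*, *Sh2d6* and *Ptgs1*, 69.6% for *Dclk1* and 47.8% for *Il25*. Among 702 parietal cells, which are not known to use these genes, the share was 1.71% for *Trpm5*, 3.56% for *Avil* and at most 0.570% for the other members. The median depth was 18803 UMIs in tuft-like cells and 47647 in parietal cells. With each cell thinned to 10000 UMIs, which left out 4 tuft-like cells and 1 parietal cell, the shares were 57.9% against 0.143% for *Dclk1* and 31.6% against 0 of 701 for *Il25*, which allows a UMI at this depth in up to 0.428% of parietal cells and sets no limit on cells that express it. Leaving *Avil* aside, 3802 of the 3970 cells that were not tuft-like had no UMI of the other 8 members, 153 had 1, 13 had 2, 1 had 3 and 1 had 4 of them, while the tuft-like cells had 4 to 8. *Avil* had a UMI in 19.4% of all cells that were not tuft-like, as described below by cell type.

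The members varied among the tuft-like cells themselves. In dataset 2 the level of *Dclk1* ran from 0 to 62.0 UMIs per 10000 UMIs of the cell, with a median of 21.0. It was at 0 in 7 of 23 cells, at 1 to 8 UMIs in 3 cells and at 17 to 131 UMIs in 13 cells. The 7 cells without *Dclk1* were not shallow, with 15205 to 30850 UMIs and a median of 22390, against 5966 to 35717 and a median of 18152 in the 16 cells with it. They came from both pools, 2 from K and 5 from T, and from 6 plates that each also held a tuft-like cell with *Dclk1*. In dataset 1 all 8 tuft-like cells had *Dclk1*, from 13.5 to 52.7 UMIs per 10000.

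Setting these 7 cells beside the 16, a split made after the values were seen and therefore given without a test, shows which members went with *Dclk1*. The median of *Alox5ap* was 3.66 UMIs per 10000 in the cells without *Dclk1* and 26.2 in the cells with it. *Sh2d6* had medians of 6.81 and 24.9, *Trpm5* of 6.87 and 17.1, and *Avil* of 8.55 and 20.5. *Pou2f3* was alike in both, with medians of 6.70 and 7.27, and so was *Ptgs1*, with 2.68 and 3.40. *Gnat3* had a median of 3.55 without *Dclk1* and 2.23 with it. The ranges of all these members overlapped between the splits. Of the calling genes, *Sh2d7*, which encodes a protein with an SH2 domain, had medians of 1.34 without and 8.44 with *Dclk1*, whereas *Ltc4s*, the leukotriene C4 synthase, had 9.21 and 10.1.

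Of the 56 genes of the pathway lists with a UMI in a tuft-like cell, the median was higher in the cells with *Dclk1* for 34, lower for 11 and equal for 11. Over all 4993 genes with at least 20 UMIs in tuft-like cells, members and calling genes left out, it was higher for 45.4% and lower for 53.8%, against 75.6% and 24.4% of the 45 list genes with as many UMIs. The lists hold genes associated with tuft cells, and nothing is read from this difference. *Nrgn*, which encodes the calmodulin-binding protein neurogranin, had no UMI in the 7 cells and was found in 11 of the 16. *Hpgd*, which encodes the enzyme that inactivates prostaglandins, was found in 1 of 7 and 14 of 16. *Vav1*, which encodes a signalling protein of blood cells, was found in 3 of 7 and 15 of 16, and *Vil1*, the brush border protein villin, had medians of 1.33 and 6.81 UMIs per 10000. Among the genes that ran the other way, *Il13ra1* had medians of 13.8 without and 8.88 with *Dclk1*, and *Tubb5*, a tubulin gene, had 15.1 and 8.60. The chief cell gene *Pgc* had medians of 74.6 and 34.2. The cells without *Dclk1* also met fewer calling genes, with a median of 6 against 9.

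Across the 23 cells of dataset 2 the levels per 10000 UMIs of several members were correlated. Spearman's rho with *Dclk1* was 0.76 for *Avil*, 0.75 for *Trpm5*, 0.72 for *Sh2d6* and 0.71 for *Alox5ap*, and *Sh2d6* and *Avil* had rho = 0.80. *Il25* and *Ptgs1* had lower values with *Dclk1*, 0.41 and 0.37, but *Il25* had 0.63 with *Alox5ap*, and *Ptgs1* had 0.60 with *Sh2d6*, close to the 0.64 between *Sh2d6* and *Alox5ap*. *Pou2f3* and *Gnat3* had rho = -0.13 and -0.19 with *Dclk1*. These are descriptions over cells that share 2 pools of mice, their plates and their class, and depth enters each level. In the 8 cells of dataset 1 *Dclk1* was never at 0. There the values with *Dclk1* were lower for some members, 0.48 for *Trpm5*, 0.31 for *Sh2d6*, 0.19 for *Alox5ap*, 0.05 for *Avil* and -0.12 for *Il25*. They were not lower for *Ptgs1* (0.40), *Gnat3* (0.01) and *Pou2f3* (-0.10).

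**Figure D3:**
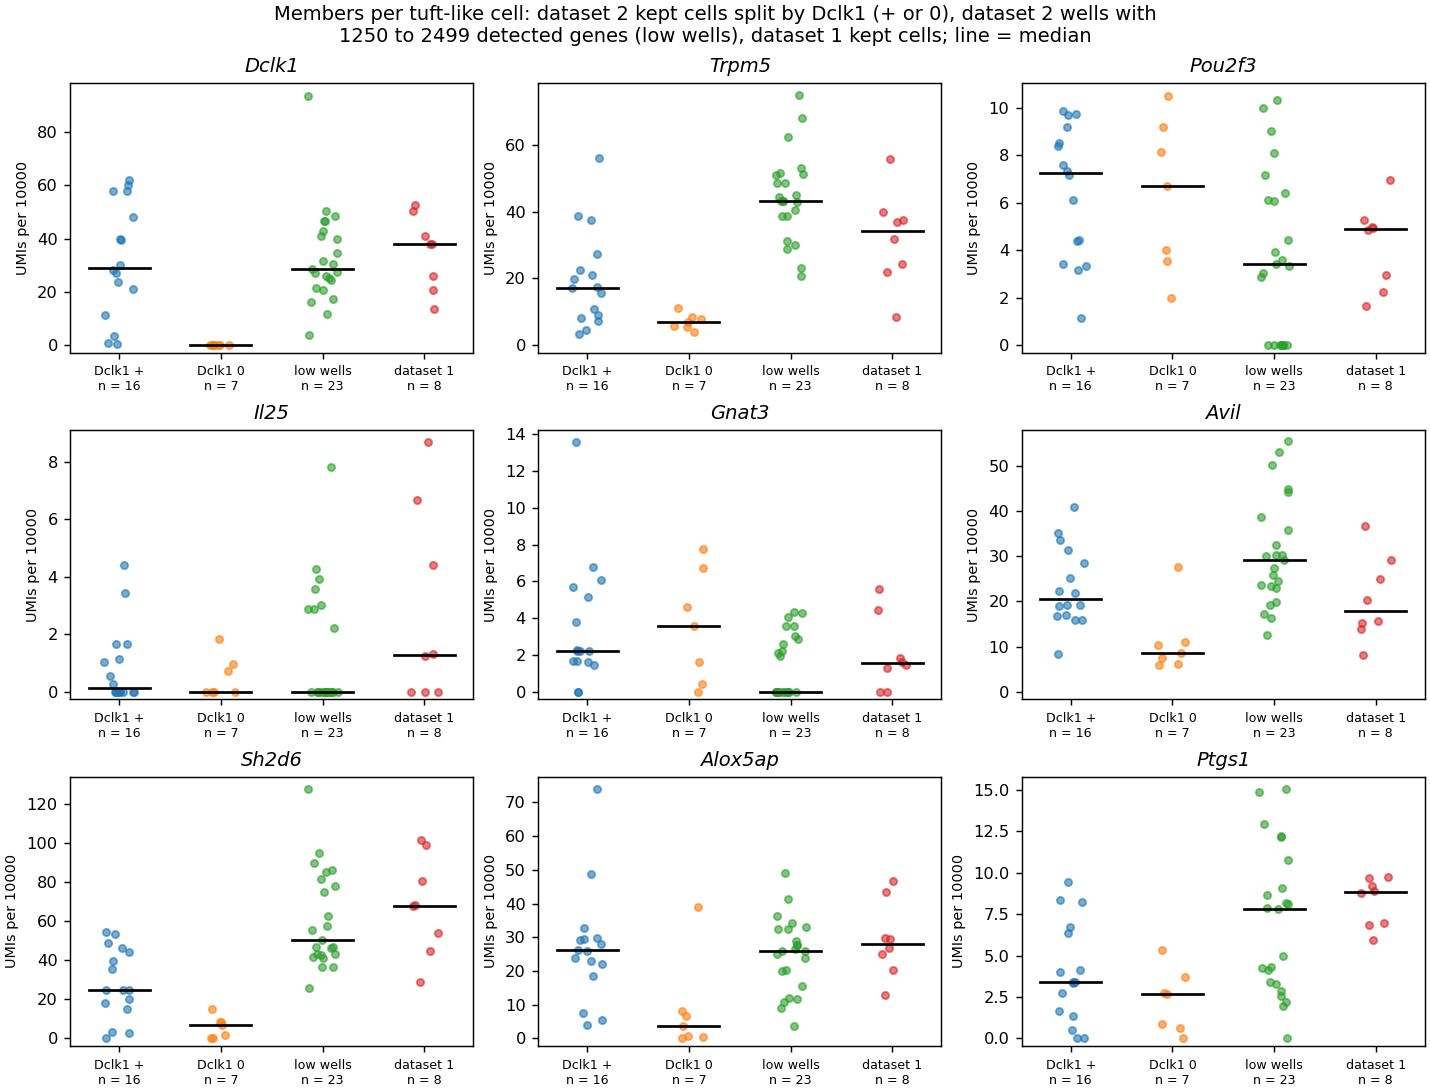
UMIs per 10000 UMIs of the cell (y axis) of each member in single tuft-like cells: dataset 2 kept cells with and without a *Dclk1* UMI, dataset 2 wells with fewer than 2500 detected genes that reach the lower minimum, and kept cells of dataset 1 (x axis, each point a cell, line at the median). Of the 7 cells without *Dclk1*, 6 lie low for *Alox5ap* and 1 is at 39.0, whereas for *Pou2f3* both kinds of cell lie alike, with medians of 6.70 and 7.27.

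A UMI of *Il25* or of *Gnat3* was found in only some of the cells, which in dataset 2 also held for *Dclk1*, *Sh2d6*, *Alox5ap* and *Ptgs1*. *Il25* had 1 to 10 UMIs in 11 of 23 tuft-like cells of dataset 2 and none in 12. Its highest level there was 4.43 UMIs per 10000, and 8.68 in dataset 1. A level of this size is a few molecules per cell, so at this depth a 0 does not show that the gene is absent. *Gnat3* reached 13.6 UMIs per 10000 in dataset 2 and was at 0 in 3 cells.

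Cluster 15 of dataset 2 held 9 cells that were not tuft-like, 7 in K and 2 in T, and these fell into 2 kinds. In 5 cells, all in K, both *Col1a1*, a collagen gene, and *Dcn*, the proteoglycan decorin, had UMIs, and *Trpm5*, *Pou2f3*, *Il25*, *Gnat3*, *Avil*, *Sh2d6* and *Alox5ap* were all at 0. In 3 of these 5 *Ptgs1* had 1, 2 and 3 UMIs, and in 2 of them *Dclk1* had 3 and 2 UMIs. No tuft-like cell of either dataset had a UMI of *Col1a1* or *Dcn*. With only 2 such cells in T, these 9 cells could not enter the test between classes, and their values are given per cell.

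The other 4 had 9 to 23 UMIs of *Epcam* and none of *Col1a1* or *Dcn*. In a cell of K with 13666 UMIs, *Trpm5* had 9, *Pou2f3* 6, *Avil* 2 and *Ptgs1* 2 UMIs. A cell of T with only 4621 UMIs had 6 UMIs of *Avil*, 3 of *Trpm5*, 3 of *Pou2f3*, 1 of *Gnat3* and 1 of *Alox5ap*. Another cell of T with 10168 UMIs had 4 of *Trpm5* and no other member. The second cell of K, with 12239 UMIs, had none of the 9. These cells met 2, 3, 2 and 0 of the calling genes, and *Dclk1* and *Sh2d6* were at 0 in all 4.

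Cluster 14 of dataset 1 was mixed in another way. Beside its 8 tuft-like cells it held 2 cells with *Mcpt1*, a mast cell protease gene, at 288 and 467 UMIs, and 2 cells with *Cd3e*, a subunit of the T cell receptor complex, at 19 and 15 UMIs. *Alox5ap* had 13 and 19 UMIs in the cells with *Mcpt1* and was at 0 in the cells with *Cd3e*. Of the other members only *Ptgs1* had a UMI in these 4 cells, 1 in the cell with 467 UMIs of *Mcpt1*.

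**Figure D4:**
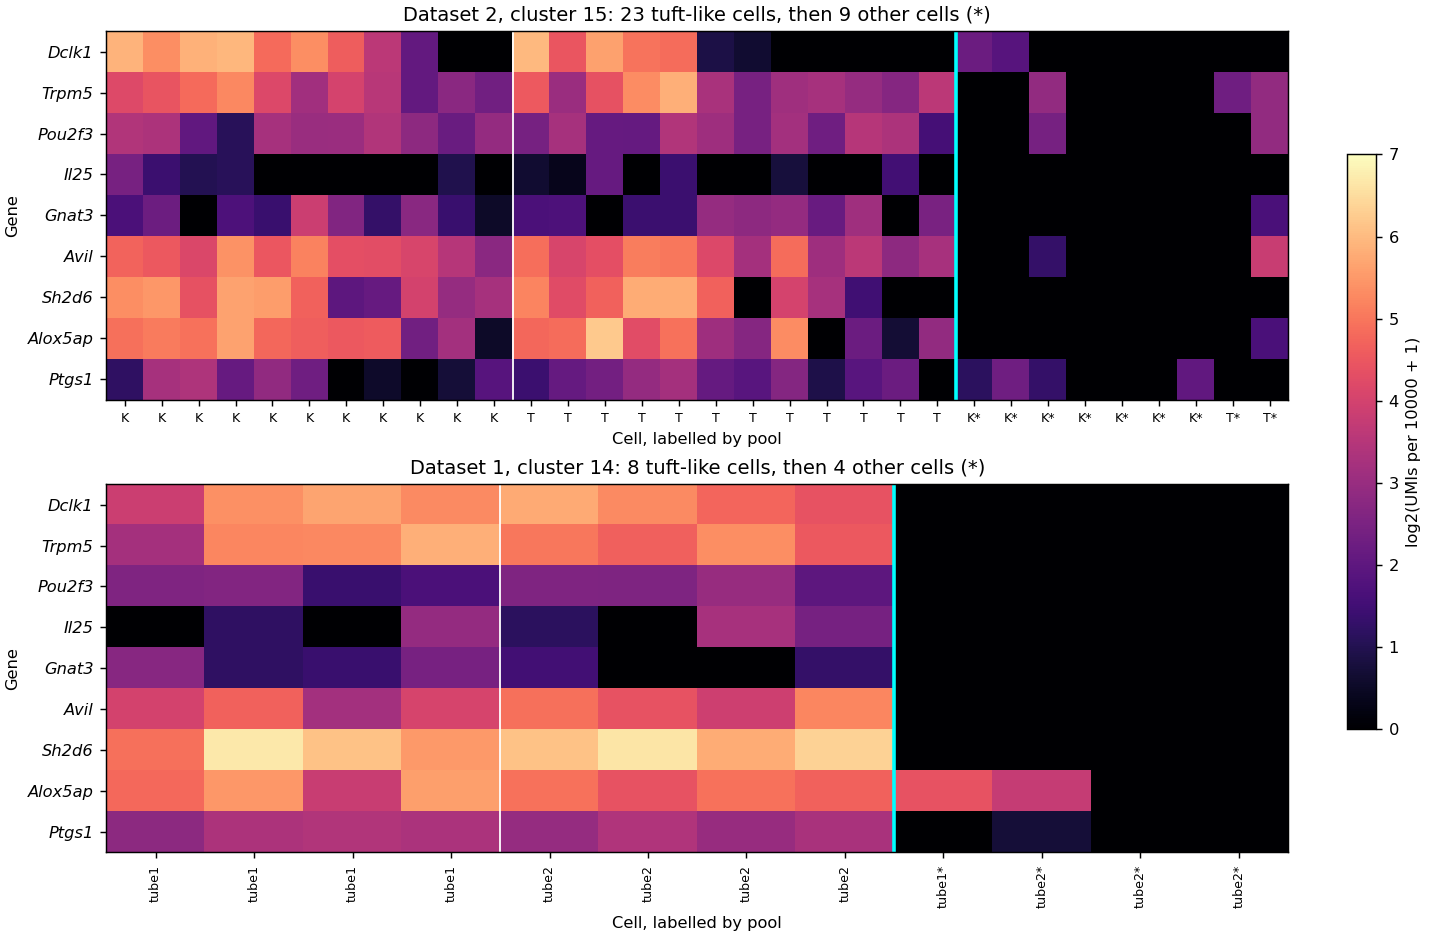
Level of each member (y axis) in each cell (x axis, labelled by pool) of cluster 15 of dataset 2 (top) and cluster 14 of dataset 1 (bottom), as log2(UMIs per 10000 + 1). The 23 and 8 tuft-like cells stand left of the cyan line, with pools divided by the white line, and the 9 and 4 other cells of the clusters stand right of it.

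*Avil* was the only member with a clear level in the major epithelial types, and it followed the pit lineage. In dataset 2 without tuft-like cells it stood at 89.1 CPM in K and 153 CPM in T in mature pit cells, at 32.9 and 41.6 CPM in pre-pit cells and at 23.7 and 21.6 CPM in isthmus cells. It fell to 4.38 ± 0.0364 CPM (SD, n = 2) in neck cells, 1.10 and 1.23 CPM in parietal cells and 1.16 and 0.783 CPM in chief cells. The pools of neighbouring types in this order did not overlap, except those of parietal and chief cells. The tuft-like cells stood above all of them, at 1776 ± 181 CPM (SD, n = 2) against 121 ± 45.2 CPM in mature pit cells. *Avil* differed among the 6 types by edgeR's quasi-likelihood F test (adjusted p = 2.33e-10), but 87.6% of 13894 genes did so, so this call does not set it apart. The other 8 members were too low in these types to be tested.

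In dataset 1 *Avil* was again higher in corpus mature pit cells than in corpus pre-pit cells, and mature pit cells differed by stomach region. Mature pit cells of the antrum stood at 416 CPM in tube1 and 369 CPM in tube2, above those of the corpus at 235 and 225 CPM. Corpus pre-pit cells stood at 114 and 53.1 CPM. Cluster 6, with the goblet-type leading genes described above, stood at 205 and 250 CPM and is not set against them. *Avil* had a UMI in each of the 49 antrum mature pit cells, in 15.6% of neck cells and in 3.51% of parietal cells. Isthmus-like cells (cluster 4-15) stood at 96.5 CPM in tube1 and 28.9 CPM in tube2, a spread that overlaps that of corpus pre-pit cells. The difference between the mature pit cells of the regions was larger than the spread between pools and was not tested. In dataset 2 the share of cells with a UMI was 71.9% in mature pit cells and 49.6% after thinning to 10000 UMIs, against 7.70% and 3.88% in neck cells.

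**Figure D5:**
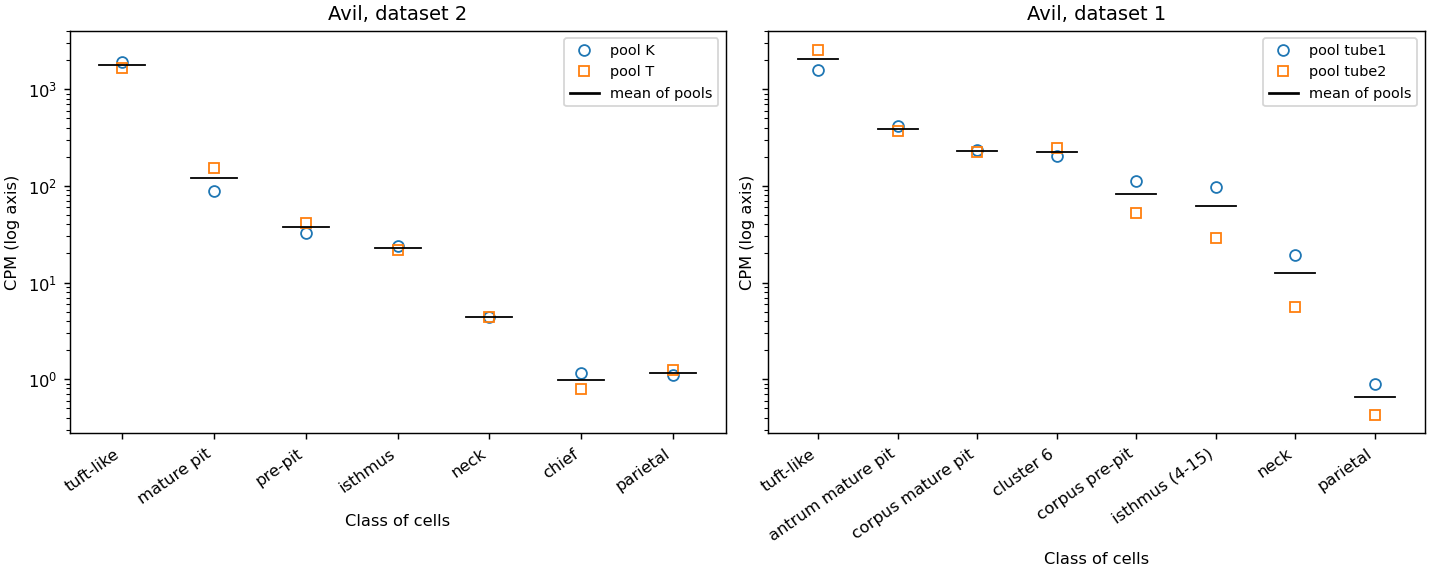
*Avil* level in CPM (y axis, log scale) in tuft-like cells and in the epithelial types (x axis) of dataset 2 (left) and dataset 1 (right), with a symbol for each pool and a line at their mean. Cluster 6 of dataset 1 is given by its number. In dataset 2 the level falls from tuft-like cells (1776 CPM) through the pit lineage to neck cells (4.38 CPM), and is lowest in chief and parietal cells.

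The promoter of *Avil* is shown because this gene alone was used by both the tuft-like cells and the pit lineage, and because POU factors such as the product of *Pou2f3* bind the octamer ATGCAAAT. The sequence is RefSeq's, GRCm38.p6, chr10:127000459-127000758, plus strand, from 250 bases before to 50 bases after the start. Capitals mark the 7-letter part of the octamer, ATGCAAA or its reverse complement TTTGCAT, which overlaps the full octamer wherever that occurs.
Avil: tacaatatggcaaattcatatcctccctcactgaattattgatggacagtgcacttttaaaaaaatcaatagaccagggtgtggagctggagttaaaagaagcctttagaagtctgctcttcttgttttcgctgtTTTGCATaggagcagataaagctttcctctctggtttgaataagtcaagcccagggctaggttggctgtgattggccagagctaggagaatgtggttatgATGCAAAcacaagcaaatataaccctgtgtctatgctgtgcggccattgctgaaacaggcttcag
Both matches lie upstream, beginning 115 and 15 bases before the start. The 7 letters were found on either strand in 4.63% of 32851 RefSeq promoters of this length, and the full octamer in 1.74%. Of the 6 members with an entry, which have 7 promoters in all, *Avil* alone held the 7 letters and none held the full octamer. A match of letters is a description and not a binding site.

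Outside the tuft-like cells and the major epithelial types, *Ptgs1*, *Alox5ap* and *Dclk1* were also found in other clusters. In dataset 1 cluster 12, stromal-like with 8 of 9 stromal markers and led by *Mgp* and *Pdgfra*, *Ptgs1* stood at 427 CPM in tube1 and 406 CPM in tube2 and had a UMI in all 15 cells. Tuft-like cells of the same pools were at 721 and 794 CPM, so the groups did not overlap. *Ptgs1* was lower in cluster 11, led by the smooth muscle genes *Tagln* and *Myh11*, at 63.5 and 97.3 CPM, and in cluster 13, where all 4 endothelial markers were detected beside haemoglobin genes, at 130 ± 51.4 CPM (SD, n = 2). In dataset 2 it stood at 36.0 and 73.3 CPM in cluster 19, whose leading genes *Kdr* and *Plvap* are endothelial, from 4 UMIs in all.

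*Alox5ap* was found in the leukocyte clusters. In macrophage-like cluster 16 of dataset 1, led by *Lyz2* and *Apoe*, it stood at 182 CPM in tube1 and 270 CPM in tube2, with a UMI in 7 of 8 cells. In macrophage-like cluster 18 of dataset 2 it stood at 207 CPM in K and 216 CPM in T, with a UMI in 8 of 13 cells. Both clusters also held *Ptgs1*, at 136 ± 65.0 CPM (SD, n = 2) in cluster 16 and at 77.7 and 33.2 CPM in cluster 18. All of these cluster levels lay below the tuft-like levels of the same pools. The 2 cells of cluster 14 with *Mcpt1* had 20.1 and 12.6 UMIs of *Alox5ap* per 10000, against a median of 28.1 and a highest value of 46.8 in the 8 tuft-like cells of that dataset, and the first lay within the range of these 8.

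*Dclk1* had 10 UMIs in 5 of the 15 cells of stromal-like cluster 12, 44.2 CPM in tube1 and 54.7 CPM in tube2. In cluster 16 of dataset 2, led by the somatostatin gene *Sst*, it had 6 UMIs in 5 of 31 cells, at 25.3 and 7.88 CPM. *Il25* had no UMI outside the tuft-like cells of dataset 1, and neither did *Pou2f3*, *Gnat3* and *Sh2d6*. In dataset 2 *Il25* had at most 0.178 CPM in any other cluster, in pool T of cluster 3. *Trpm5* was highest outside tuft-like cells among the other cells of cluster 15, described above.

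Genes that work with the members were counted in lists of the same pathways. Of 8 tested genes for taste-type signalling, 6 were higher in tuft-like cells of dataset 2 and 1 was lower, beside 12.8% and 15.4% of all genes tested, with a median log2 fold change of 5.13 against -0.13 over all genes tested. The same background holds for the lists that follow in dataset 2, and 6.76% higher and 10.7% lower in dataset 1. Listed genes near 0 in the other types, such as *Gnb3* at a mean of 0.0287 CPM, passed the filter through their tuft-like counts and had to differ. Nothing is therefore read from the counts or medians of this list and those that follow. *Plcg2*, a phospholipase C, stood at 885 CPM in K and 808 CPM in T against 10.8 and 11.4 CPM in the epithelial types. *Rgs2*, a regulator of G protein signalling, stood at 2048 and 1909 CPM against 2.91 and 3.77 CPM. Of the inositol trisphosphate receptors, *Itpr2* was higher, at 591 and 398 CPM against 55.7 and 40.0 CPM, and *Itpr3* was lower, at 52.9 and 48.6 CPM against 109 and 120 CPM. The sweet and umami receptor gene *Tas1r3* stood at 14.4 and 8.84 CPM from few UMIs, and *Tas1r1* had none in tuft-like cells. In dataset 1, 4 of 6 tested genes were higher and *Itpr3* was again lower.

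Of 10 tested eicosanoid genes, 5 were higher in dataset 2 and 1 was lower, with a median log2 fold change of 1.52. *Alox5*, the 5-lipoxygenase that needs the product of *Alox5ap*, stood at 1269 CPM in K and 782 CPM in T against 0.0455 and 0.0282 CPM, and *Hpgds*, the prostaglandin D synthase of blood cells, at 394 and 358 CPM against 0.0455 and 0.0423 CPM. *Pla2g4a*, the phospholipase that releases arachidonic acid, stood at 611 and 605 CPM against 109 and 106 CPM. *Ptges2*, a prostaglandin E synthase, was lower, at 19.2 and 48.6 CPM against 61.2 and 61.4 CPM. In dataset 1, *Alox5*, *Hpgds* and *Pla2g4a* were higher and *Ptges2* lower among 6 tested.

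Of 8 tested transcription factors, 6 were higher in dataset 2, with a median log2 fold change of 1.84, among them *Spib*, an ETS factor, at 1163 CPM in K and 919 CPM in T against 0.0455 and 0.127 CPM. *Sox9* stood at 808 and 614 CPM against 312 and 313 CPM, and *Foxa2* was lower. In dataset 1, 4 of 7 were higher, again with *Spib* and *Sox9*, and *Foxa1* was lower. All 10 cytoskeleton and brush border genes were tested, and 8 were higher and 2 lower in dataset 2, with a median log2 fold change of 1.85. *Vil1* stood at 462 and 490 CPM against 10.8 and 15.7 CPM, *Espn*, an actin bundler, at 861 and 747 CPM against 41.3 and 43.5 CPM, and *Ezr*, the linker ezrin, was lower, at 298 and 323 CPM against 992 and 923 CPM. In dataset 1, 7 were higher and *Ezr* and *Pls1* lower.

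Of the immune-type signalling genes, 18 of 18 tested were higher in dataset 2, with a median log2 fold change of 10.55 against -0.13 over all genes tested, and 16 of 17 in dataset 1. The background of genes called higher was 12.8% and 6.76%. Genes of this list that are near 0 in the other types passed the filter only through the tuft-like counts and had to differ, so nothing is read from the count or the median. *Lrmp*, an endoplasmic reticulum protein of lymphocytes, stood at 2928 CPM in K and 2682 CPM in T against 0.152 and 0.239 CPM. *Il17rb*, a subunit of the receptor for IL-25, stood at 72.1 and 70.7 CPM against 0.197 and 0.394 CPM, and *Il13ra1*, a receptor subunit for IL-13, at 904 and 1197 CPM against a mean of 49.6 CPM. *Siglecf*, a sialic acid receptor, stood at 197 and 106 CPM. The leukocyte gene *Ptprc*, a member of this list, was at 76.9 and 13.3 CPM. Of the cholinergic genes, *Chrm1* and *Chrm3* were the only 2 tested and neither passed in either dataset. The same limit on genes near 0 in the other types holds for the other lists.

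Ordered by the fitted log2 fold change, an order that the model sets for genes with no UMI on the lower side, the first 5 rises among called genes of dataset 2 with at least 10 UMIs in both pools were *Alox5*, *Spib*, *Pate4*, *Sh2d6* and *Gm19817*. *Pate4* had 78 UMIs in K and 59 in T and none in the epithelial types. It was 14392-fold higher set against 3 UMIs over the group, which leaves out the counting error of its own UMIs. *Gm19817*, which overlaps *Dclk1* on its strand, had 133 UMIs in 15 of 23 tuft-like cells, of which 2 were in the 7 cells without *Dclk1*. It also had none in the epithelial types. The first 5 falls were *Galnt6*, *Map3k5*, *Spink4*, *9030622O22Rik* and *Slc5a5*, each with no UMI in the tuft-like cells. *Galnt6*, which encodes an enzyme that starts mucin-type sugar chains, stood at 105 and 120 CPM in the epithelial types and was at least 16.4-fold lower set against 3 UMIs over the tuft-like cells. For the other 4 this bound was between 4.90-fold and 9.35-fold, so the data do not show that these falls are the largest.

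Among the genes whose pattern over the 21 classes of dataset 2 was most like the summed level of the 9 members were *Skap2*, *Nras*, *Il13ra1* and *Rtn4*, by Pearson's r of log2(CPM + 1) among 4993 genes with at least 20 UMIs in tuft-like cells. The values of r were 0.86, 0.86, 0.85 and 0.84, as a description over classes of the same 2 pools. *Skap2*, an adaptor protein of immune cells, stood at 756 CPM in tuft-like cells, against 115 CPM in its highest other class, cluster 18. *Il13ra1* stood at 1051 CPM, against 437 CPM in its highest other class, the other cells of cluster 15. *Nras* stood at 164.9 CPM, against 127 CPM in cluster 19, and *Rtn4* at 1122 CPM, against 569 CPM in the other cells of cluster 15.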

How the data were processed

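Single cells of mouse stomach were measured by Quartz-Seq2 in 2 datasets of 2 pools each. The authors aligned the reads with STAR, counted UMIs per gene with Drop-seq tools on GRCm39 (GENCODE M27 models) and clustered with Seurat, and the submitters' processing notes name bcl2fastq 2.20.0.422. The deposited counts are raw UMI counts per gene and cell, not normalized, and the deposited metadata give each cell's cluster, total and mitochondrial percent. For dataset 1 the methods name propidium iodide as the dead-cell dye and the labels ToPro3. Totals and detected genes of all 4484 kept cells equalled those in the plate tables.

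The 9 members, the calling genes and the gene lists were chosen with earlier results of these data known. UMIs were summed per class and pool (at least 3 cells in each pool) and tested with edgeR 4.0.16 in R 4.3.3 (TMM, filterByExpr, quasi-likelihood F test), with Benjamini-Hochberg adjustment over all genes tested and calls at adjusted p under 0.05. Sums numbered 14 in dataset 2 and 16 in dataset 1 for the tuft-like comparisons, and 12 among the epithelial types. Standard errors were the log2 fold change divided by the square root of F. CPM are UMIs per 1000000 UMIs of the sum. Wilson and exact counting intervals, and floors of 3 UMIs, cover counting error only. DESeq2 1.42.0 was an alternative. Doublets were not called. The genes named are the members, examples of each list (2 to 4 were planned, but 6 of the taste-type and 5 of the immune-type list are named, and those in the split by *Dclk1* were picked with their values in view), the 5 largest called rises and falls (10 or more UMIs per pool on the side that is higher), and the 5 genes most like the members' sum; 1 of these 5 and 1 calling gene are not reported here. The tuft-like cells could not be tested against the other cells of cluster 15, of which pool T held 2.

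Pools mark the same mice, so classes of a pool are paired by design. The correlation of deviations between classes had a median of 0.122 over 21 pairs of classes in dataset 2 (0.00683 to 0.435) and of 0.0112 over 28 in dataset 1. The fits were tested on simulated data: with 8-fold raised genes, 95% of 40 were recovered in the tuft-like comparison of dataset 2 over 12962 genes and 80.6% of 36 in that of dataset 1 over 10473 genes. Recovery was lower for 8-fold lowered genes, 58.3% of 24 and 14.8% of 27, and for 2-fold raised genes, 25.8% of 31 and 8.57% of 35. False calls numbered 10 of 110 in dataset 2, 8 of them lower, and 3 of 55 in dataset 1, all lower. Apart from the seeded genes, the simulated classes shared 1 mean profile. All genes had the common dispersion of the fit, 0.00774 in dataset 2 and 0.0122 in dataset 1. In the data of dataset 2, 87.6% of genes differed among the epithelial types, so these figures describe the simulated setting and not the real comparisons.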

Additional observations from a re-analysis of the deposited data

Results flagged for a closer look

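Tuft-like wells were also found outside the clustered cells. Among wells with fewer than 2500 detected genes that reach the lower minimum, 0.5 times as high, which the authors used in their analysis of the less common cell types, 23 of 85 in dataset 2 (27.1%) and 6 of 91 in dataset 1 (6.59%) had at least 4 of the 10 calling genes. Among the kept cells the same rule gave 0.576% and 1.63%. *Dclk1*, *Trpm5*, *Avil*, *Sh2d6* and *Alox5ap* had a UMI in all 29 of these wells. In the 23 wells of dataset 2, *Dclk1* had 1 to 23 UMIs with a median of 9, and its median level was 28.4 UMIs per 10000, whereas 7 of the 23 kept tuft-like cells had none. *Pou2f3* had a UMI in 15 of these 23 wells, *Gnat3* in 11, *Il25* in 8 and *Ptgs1* in 22. The wells held 2315 to 5132 UMIs with a median of 3293 in dataset 2, and 2241 to 4871 with a median of 4062 in dataset 1. They were on 8 of the 12 plates of dataset 2 and on 5 of the 6 plates of dataset 1.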

How the results depend on the processing

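The number of tuft-like cells depended on the minimum of detected genes: at the authors' lower minimum for less common cell types, 0.5 times 2500 genes, it was 14 in dataset 1 and 46 in dataset 2. Other rules for calling gave 8 or 9 cells in dataset 1 and 22 to 26 in dataset 2. Among the fitted log2 fold changes of the members, 160 alternative values kept their direction and, where tested, their call, and the 1 exception was *Gnat3* in dataset 1, with 10.03 and an adjusted p of 0.109 by DESeq2's Wald test, where the cause was not tested. With the pool as a replicate block, 3785 genes were called in dataset 2 and 1840 in dataset 1 for the tuft-like comparisons, and 12555 among the epithelial types, and no member's call changed. With DESeq2 the median log2 fold change of all genes moved from -0.13 to -0.01 in dataset 2 and from -0.50 to -0.19 in dataset 1. Without cluster 6 on the epithelial side, an alternative chosen after seeing the data, 683 genes were called higher and 1194 lower in dataset 1, and *Avil* had 4.95 there. Without 1 pool, which leaves no test, the log2 fold change of *Avil* lay between 6.80 and 7.11 in dataset 2 and between 3.94 and 5.41 in dataset 1. That of *Gnat3* in dataset 1 lay between 9.04 and 11.06, and that of *Ptgs1* in dataset 2 between 9.83 and 10.67. The comparison of tuft-like cells with the other cells of cluster 15 was not run under any setting. With 23 and 8 tuft-like cells, a gene of a few molecules per cell, such as *Il25*, is at the limit of what can be detected.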

Other observations

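A few cells outside the tuft-like class carried members of their own. A neck cell of cluster 2 in pool K, with 27314 UMIs, had 14 UMIs of *Pou2f3*, no other member and 2 of the calling genes. A cell of cluster 0 in pool T, with 17522 UMIs, had 4 UMIs of *Pou2f3* and 3 of the calling genes. Leaving *Avil* aside, 15 of 3970 other cells of dataset 2 and 12 of 483 of dataset 1 had at least 2 members. Within the tuft-like class, 1 cell of pool K had 41 UMIs of *Chga*, the chromogranin A gene of endocrine cells, and no other tuft-like cell had more than 1. These cells were chosen after their values were seen.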
